A study of Mus musculus with 26 samples.

Results

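The Klk1 family of mouse is a group of secreted serine proteases, the glandular or tissue kallikreins, encoded side by side on chromosome 7. The genes described here were chosen by symbol, as Klk1, Klk1b21, Klk1b22, Klk1b24, Klk1b26 and Klk1b27, because Klk1b22 was higher in the testis of ArKI mice. All 6 have a row in the deposited count tables, which hold 23337 genes. Of the 6, 4 (Klk1b21, Klk1b22, Klk1b24 and Klk1b27) were higher in all 3 ArKI testes than in all 3 WT testes, Klk1 was not, and Klk1b26 had no read in any sample. The values that chose the genes are those of the testis comparison, so for these 6 genes that comparison is given as a description, without a test.

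RNA of 26 samples from mice 3 months old was sequenced. ArKI mice carry a germline knockin in which SUMO acceptor lysines of the targeted protein are replaced by arginines in every cell, and the controls were WT males. Per the labels all mice, WT and ArKI, were of the strain C57Bl/6N; 129 hybrid. The testis was taken from 3 WT and 3 ArKI mice. The initial segment (IS) and the caput, the first parts of the epididymis, were taken from 5 WT and 5 ArKI mice. The methods give these mice for both segments together, so the IS and caput results are not taken as those of separate mice. The testis libraries belonged to sequencing batch 1 and the epididymal libraries to batch 2, so tissue and sequencing batch cannot be told apart between testis and epididymis. The counts do not show the replaced codons and so cannot check the genotype labels.

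Tissue kallikrein, the product of Klk1, releases kinin peptides from kininogens, and kinins act through bradykinin receptors on vessels and smooth muscle. In rodents the family has expanded, and the Klk1b proteins are best known from the submandibular gland, where several process or bind growth factors. Klk1b22 encodes an epidermal growth factor binding protein, Klk1b26 a prorenin-converting enzyme, and Klk1b21, Klk1b24 and Klk1b27 are known as kallikreins of the Leydig cells, the androgen-producing cells between the seminiferous tubules. Many kallikreins respond to androgen in the tissues that secrete them.

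Testis libraries held 14077013 to 21376604 counts, IS libraries 5829074 to 9770625 and caput libraries 4125768 to 11913469. Levels are given as CPM, counts scaled to a library of 1000000 counts, after TMM scaling of all 26 libraries together, and fold changes come from the edgeR fit of each comparison. A value of 3 counts in a library, used as the limit below which a gene counts as not detectable, equals 0.176 to 0.265 CPM in testis, 0.295 to 0.480 CPM in the IS and 0.234 to 0.631 CPM in the caput, and this limit covers counting error only. The tissue markers fitted the labels. The 10 germ cell markers summed to 15013 to 19814 CPM in testis, and the 10 markers of epididymal epithelium to 17.3 to 24.9 CPM there against 37172 to 50030 CPM in the IS and 18224 to 25845 CPM in the caput.

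In the GRCm38 annotation the 15 Klk1 and Klk1b genes with a row in the tables lie on the plus strand of chromosome 7. Klk1b26 is at chr7:44012168-44016968, Klk1b27 at chr7:44052290-44056712, Klk1b21 at chr7:44102328-44106583, Klk1b22 at chr7:44112673-44116922, Klk1b24 at chr7:44188236-44192455 and Klk1 at chr7:44225360-44229618. Each of the 6 has 5 exons. Between Klk1b22 and Klk1b24 lies another paralog, Klk1b16, at chr7:44136767-44141610. Going up the chromosome the order is Klk1b7-ps, Klk1b8, Klk1b1, Klk1b9, Klk1b11, Klk1b26, Klk1b27, Klk1b21, Klk1b22, Klk1b16, Klk1b24, Klk1b3, Klk1b4, Klk1b5 and Klk1.

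Promoter sequences are shown for Klk1 and for the run of genes from Klk1b26 to Klk1b3, which holds the other members, because these paralogs are similar in sequence. RefSeq promoter windows (250 bases before to 50 bases after the annotated start, build GRCm38.p6) were found for 14 of the 15 genes. For each gene below the stretch runs 5′ to 3′ on the plus strand and ends with the letters TTTAAA, in capitals, while AGAACA, the repeated unit of the androgen response element, is also in capitals where it is present. For Klk1 the stretch is the 206 bases before the annotated start, and its capitals mark TGACCTT, the reverse complement of the Nr5a1 motif AAGGTCA.
Klk1b26 (chr7:44012446-44012657): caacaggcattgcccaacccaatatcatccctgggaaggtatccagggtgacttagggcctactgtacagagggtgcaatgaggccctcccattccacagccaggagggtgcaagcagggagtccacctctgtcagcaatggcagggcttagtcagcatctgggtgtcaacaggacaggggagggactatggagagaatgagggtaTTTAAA
Klk1b27 (chr7:44052067-44052278): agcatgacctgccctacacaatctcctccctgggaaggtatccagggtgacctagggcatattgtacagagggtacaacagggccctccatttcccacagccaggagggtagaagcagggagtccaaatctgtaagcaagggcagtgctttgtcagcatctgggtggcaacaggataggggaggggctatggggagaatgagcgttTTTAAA
Klk1b21 (chr7:44102090-44102301): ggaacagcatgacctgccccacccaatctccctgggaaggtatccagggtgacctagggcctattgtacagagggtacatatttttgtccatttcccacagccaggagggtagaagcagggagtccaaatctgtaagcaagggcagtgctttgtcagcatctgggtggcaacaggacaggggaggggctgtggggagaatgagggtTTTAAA
Klk1b22 (chr7:44112427-44112638): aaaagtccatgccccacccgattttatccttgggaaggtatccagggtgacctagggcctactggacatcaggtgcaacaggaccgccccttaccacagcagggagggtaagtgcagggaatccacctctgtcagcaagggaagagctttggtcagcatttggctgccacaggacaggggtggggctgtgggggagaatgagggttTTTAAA
Klk1b16 (chr7:44137045-44137256): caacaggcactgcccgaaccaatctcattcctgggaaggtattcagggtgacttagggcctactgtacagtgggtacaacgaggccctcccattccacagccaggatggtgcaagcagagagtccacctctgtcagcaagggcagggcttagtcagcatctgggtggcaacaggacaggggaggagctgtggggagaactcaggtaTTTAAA
Klk1b24 (chr7:44187999-44188210): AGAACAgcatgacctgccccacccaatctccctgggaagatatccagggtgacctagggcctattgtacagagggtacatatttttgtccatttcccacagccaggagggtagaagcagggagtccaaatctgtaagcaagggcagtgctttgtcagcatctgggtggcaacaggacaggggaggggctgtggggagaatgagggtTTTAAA
Klk1b3 (chr7:44197972-44198183): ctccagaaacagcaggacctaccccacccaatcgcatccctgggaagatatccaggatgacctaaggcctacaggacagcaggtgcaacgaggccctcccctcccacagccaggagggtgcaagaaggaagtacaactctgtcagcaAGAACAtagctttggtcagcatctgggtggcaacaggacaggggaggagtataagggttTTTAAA
Klk1 (chr7:44225154-44225359): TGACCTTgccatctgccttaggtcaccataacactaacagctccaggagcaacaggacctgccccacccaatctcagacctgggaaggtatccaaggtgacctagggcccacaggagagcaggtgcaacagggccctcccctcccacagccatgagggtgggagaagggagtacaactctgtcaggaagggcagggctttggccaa

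Over these stretches Klk1b21 and Klk1b24 were 99.1% identical over 212 aligned bases, Klk1b27 and Klk1b21 93.7%, and Klk1b27 and Klk1b24 93.2%. Klk1b22, the gene with the largest fold change, was 79.5% identical to Klk1b27 and 80.1% to Klk1b21 and Klk1b24, and was closest to Klk1b9, at 86.3%. The letters TTTAAA, searched for after the sequences had been seen, occurred in 13 of the 14 family windows, at positions −48 to 4 from the annotated start (4 in Klk1b21), and in 13.2% of all 32851 promoter windows. The TATA box letters TATAAA occurred in 0 of the 14 and in 13.6% of all. AGAACA (both strands) occurred in 2 of the 14, those of Klk1b24 and Klk1b3, and in 19.0% of all windows. AAGGTCA (both strands), the motif of the steroidogenic factor Nr5a1, occurred in 2 of the 14, those of Klk1b21 (outside the stretch shown) and Klk1, and in 4.72% of all. A match is a description of the letters in the window and not a binding site. The 4 members that were higher in ArKI testis did not share either of the last 2 motifs in these windows.

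In the testis Klk1b22 had 14, 16 and 30 counts in the 3 WT samples and 198, 197 and 174 counts in the 3 ArKI samples. The groups were far apart, and the highest WT sample, replicate 3, was still well below the lowest ArKI sample. Its level was 1.67 CPM ± 0.82 (SD, n = 3) in WT and 13 CPM ± 1.9 (SD, n = 3) in ArKI, a log2 fold change of 2.96 (SE 0.22) or 7.76-fold. The cut-offs used in testis were a false discovery rate (FDR) below 0.2 and a change of more than 2-fold, and Klk1b22 ranked 6 by fold change among the 119 genes that met them with higher levels in ArKI. That set is 0.751% of the 15838 genes tested, and 4 of the 6 members were in it, a count that the choice of Klk1b22 and its neighbours fixed in part and from which nothing is read.

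Klk1b27, a Leydig cell kallikrein, had 69, 50 and 64 counts in WT and 330, 468 and 403 counts in ArKI testis. In CPM this was 4.96 ± 0.55 against 27.1 ± 1.7 (SD, n = 3 each), with a log2 fold change of 2.42 (SE 0.12). Klk1b27 thus had the second-largest change of the members, and its samples spread little within either genotype.

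Klk1b24 had 103, 104 and 118 counts in WT and 481, 578 and 593 counts in ArKI testis, or 8.92 CPM ± 1.39 against 37.5 CPM ± 4.0 (SD, n = 3 each), and its log2 fold change was 2.06 (SE 0.12). Klk1b21, its closest relative in sequence, had 102, 95 and 125 counts in WT and 366, 487 and 408 counts in ArKI. In CPM Klk1b21 went from 8.83 ± 1.75 to 28.5 ± 0.47 (SD, n = 3 each), a log2 fold change of 1.67 (SE 0.12). The WT levels of this pair were alike, while per kilobase of transcript the 3 ArKI samples were all higher for Klk1b24 than for Klk1b21.

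Klk1, the tissue kallikrein gene at the end of the cluster, had 47, 37 and 44 counts in WT and 55, 94 and 51 counts in ArKI testis. The level was 3.48 CPM ± 0.27 in WT and 4.44 CPM ± 0.99 in ArKI (SD, n = 3 each), with a log2 fold change of 0.34 (SE 0.19), and the groups overlapped in CPM. The highest value was that of ArKI replicate 2. Klk1b26 had 0 counts in all 6 testis samples and in all 20 epididymal samples, so it was not detectable at this depth.

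**Figure D1:**
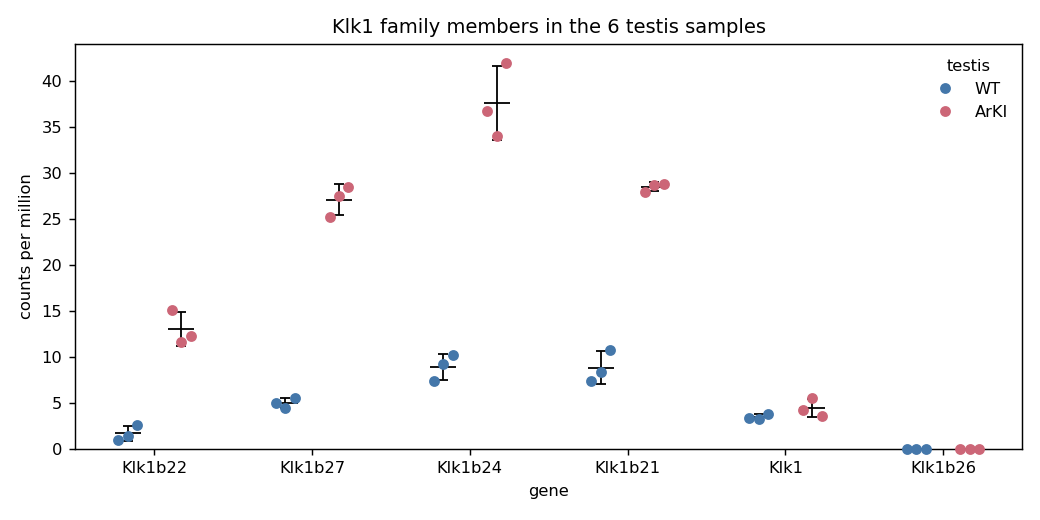
CPM of the 6 Klk1 family members in the 3 WT and 3 ArKI testis samples, with each point a sample, the horizontal line the mean and the bar the SD. Klk1b22, Klk1b27, Klk1b24 and Klk1b21 are higher in every ArKI sample, Klk1 overlaps between genotypes and Klk1b26 is at 0.

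In CPM, 4 of the 6 members had all ArKI testis samples above all WT samples, an arrangement seen for 11.4% of all genes tested. Since the members were chosen for this comparison, the share is printed as background only. Leaving out each sample in turn moved the log2 fold change of Klk1b22 between 2.67, without WT replicate 1, and 3.41, without WT replicate 3. The corresponding ranges were 2.34 to 2.5 for Klk1b27, 1.94 to 2.16 for Klk1b24 and 1.55 to 1.84 for Klk1b21.

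Levels of different genes were compared per kilobase of transcript. In WT testis the order was Klk1b24 (10.2 ± 1.6 CPM per kb), Klk1b21 (10.1 ± 2.0), Klk1b27 (5.58 ± 0.61), Klk1 (3.65 ± 0.29) and Klk1b22 (1.95 ± 0.96), and the first pair did not differ beyond its spread. In ArKI testis it was Klk1b24 (42.8 ± 4.6 CPM per kb), Klk1b21 (32.7 ± 0.54), Klk1b27 (30.4 ± 1.9), Klk1b22 (15.2 ± 2.2) and Klk1 (4.66 ± 1.03), and Klk1b21 and Klk1b27 differed on this scale by less than the sum of their SDs. Klk1b22 was thus below Klk1 in WT and above it in ArKI testis. The same orders were found when each level was divided by the number of 50-base windows of the transcript with no copy in another transcript, but on that scale Klk1b21 and Klk1b27 in ArKI testis lay further apart, at 48.8 ± 0.81 and 37.6 ± 2.4 CPM per kb of such windows (SD, n = 3 each).

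The other Klk1b genes of the cluster were tested in the same fit. Of the 9, 7 could be tested, and 1, Klk1b16, passed both thresholds. Klk1b16 had 18, 24 and 32 counts in WT and 92, 69 and 94 counts in ArKI testis, and rose by a log2 fold change of 1.5 (SE 0.26, edgeR quasi-likelihood test, adjusted p = 0.00296). The groups did not overlap. Klk1b16 lies between Klk1b22 and Klk1b24. The other genes on this stretch of the cluster, Klk1b27, Klk1b21, Klk1b22 and Klk1b24, are members chosen on the same comparison, so their position side by side is a description from which nothing is read.

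Klk1b8, the family gene with the most counts in testis, passed the FDR but not the fold threshold, at a log2 fold change of 0.26 (SE 0.086, edgeR adjusted p = 0.149), and lost this call with DESeq2 (0.26) and when ArKI replicate 1 or 2 or WT replicate 1 or 3 was left out (0.17 to 0.30). Its values were 712, 769 and 669 counts in WT and 1002, 1168 and 985 counts in ArKI, from libraries of unequal depth. The remaining 5 did not pass. Klk1b3 had a log2 fold change of 0.33 (SE 0.16, edgeR adjusted p = 0.395), Klk1b4 0.69 (SE 0.36, edgeR adjusted p = 0.436), Klk1b5 0.56 (SE 0.21, edgeR adjusted p = 0.221), Klk1b7-ps 0.14 (SE 0.19, edgeR adjusted p = 0.816) and Klk1b9 −0.06 (SE 0.13, edgeR adjusted p = 0.895). The median log2 fold change of the 7 was 0.33, beside −0.0023 over all genes tested. In CPM all 3 ArKI samples were above all 3 WT samples for Klk1b3, Klk1b5 and Klk1b8, as for Klk1b16. The groups overlapped for Klk1b4, Klk1b7-ps and Klk1b9. Such a separation was seen for 11.4% of all genes tested. Klk1b1 was too low to be tested, with 1, 1 and 4 counts in WT and 10, 10 and 9 in ArKI, so that all 3 ArKI samples were higher (0.168 CPM ± 0.153 against 0.663 CPM ± 0.0905, SD, n = 3 each), and Klk1b11 had at most 1 count.

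**Figure D2:**
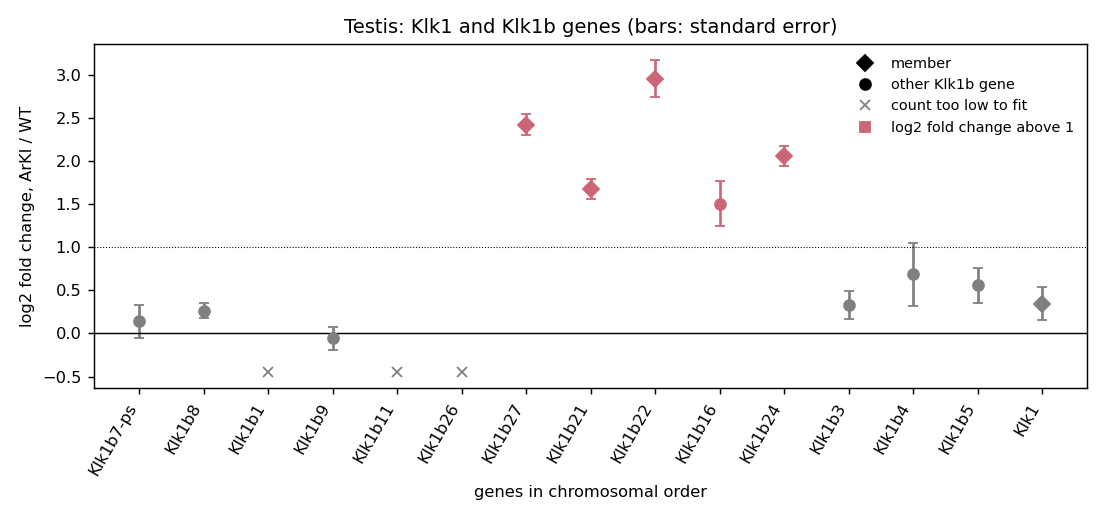
Log2 fold change of ArKI over WT testis (bars, SE) for the Klk1 and Klk1b genes in their order along the chromosome, with members as diamonds, other genes as circles and genes too low to fit as crosses. The genes with a log2 fold change above 1, in red, are 4 members, described without a test, and Klk1b16, with values of 1.5 to 2.96, and the other fitted genes lie between −0.06 and 0.69; Klk1b1, Klk1b11 and Klk1b26 could not be fitted.

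The genes flanking the cluster were examined next. Of the 10 nearest genes with rows on each side, 7 of the 20 could be tested, all on the Klk1 side, and their log2 fold changes ran from −0.34 to 0.19 with a median of −0.02. None of the 7 passed both thresholds with edgeR, DESeq2 or limma-voom. With edgeR 1 of them, Shank1, passed the FDR alone with a lower level in ArKI (log2 fold change −0.34, SE 0.11, edgeR adjusted p = 0.116). It was also the 1 gene with an unadjusted p below 0.05. At the FDR alone limma-voom passed 1 gene of the 7 and DESeq2 0. The 10 genes on the other side are Klk15 and Klk4 to Klk12, and none had more than 5 counts in a testis sample. In a count added after the values had been seen, 1 of the 62 genes tested within 1 Mb of the cluster passed both thresholds. This gene was Rcn3, an endoplasmic reticulum calcium-binding protein, which rose from 8.33 to 21.3 CPM (log2 fold change 1.33, SE 0.13, edgeR adjusted p = 1.02e-06) and starts 853296 bases beyond Klk1. Over chromosome 7 without the family, 9 of 1191 genes tested passed, or 0.756%, and over all placed genes 127 of 15734, or 0.807%.

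Reads were 50 bases long and counted when uniquely mapped, so reads from stretches that paralogs share were lost or could go to another gene. Of the 50-base windows of each transcript, the share with no exact copy in another annotated transcript was 86.7% for Klk1b22, 85.7% for Klk1b27, 85.0% for Klk1b26, 71.6% for Klk1, 70.9% for Klk1b21 and 66.1% for Klk1b24. Klk1b16 had 89.9%. The share of windows at 2 or more mismatches from every other family transcript was 69.9% for Klk1b26, 63.0% for Klk1b22 and 60.2% for Klk1b27. It was 49.8% for Klk1, 47.8% for Klk1b21 and 39.1% for Klk1b24. Introns and intergenic sequence were not searched.

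The members are thus not equally well separated, and the values of Klk1b24, Klk1b21 and Klk1 are the least certain as values of 1 gene. The transcripts of Klk1b21 and Klk1b24 were 94.1% identical, those of Klk1b27 and Klk1b21 93.9% and those of Klk1b27 and Klk1b24 93.3%. The closest pair of the family was Klk1 and its neighbour Klk1b5, at 94.4%. Klk1b22 was at most 88.8% identical to any other family transcript. The reads were aligned to the C57BL/6J reference, and the sources used here do not give which strain's copy of the cluster each C57Bl/6N; 129 hybrid mouse carried. Differences between strains in these genes cannot be told apart from differences in level with these counts.

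**Figure D3:**
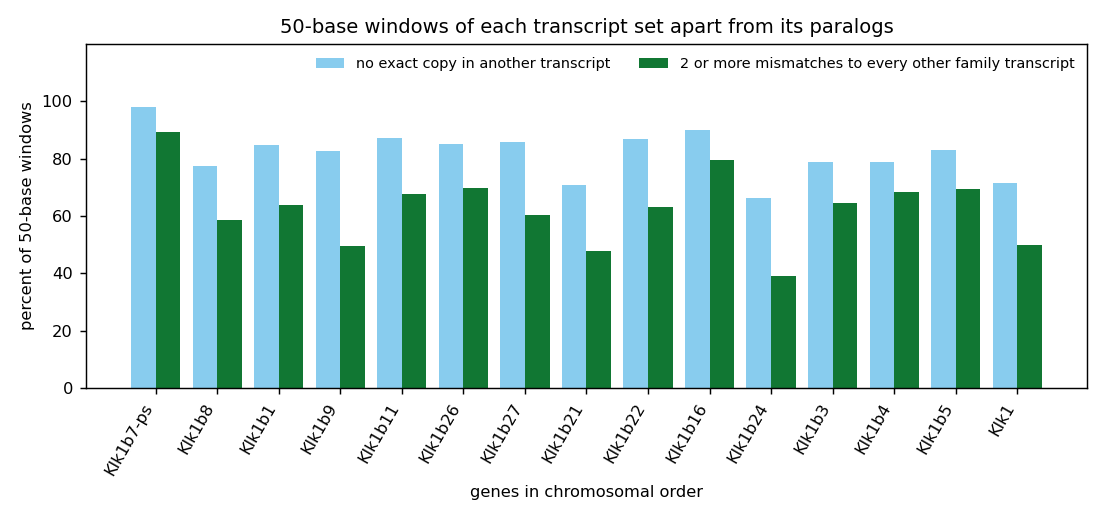
Percent of the 50-base windows of each transcript that have no exact copy in another annotated transcript (light bars) and that differ by 2 or more bases from every other family transcript (dark bars), in chromosomal order. Among Klk1b21, Klk1b22, Klk1b24, Klk1b27 and Klk1b16, the light bars are lowest for Klk1b24 and Klk1b21 and highest for Klk1b16.

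Sums of counts over genes were also taken, and the sum over the members still depends on how reads were divided between them and the other paralogs. The 6 members together had 302 to 381 counts in a WT testis and 1430 to 1824 in an ArKI testis, or 27.9 CPM ± 4.5 against 110.5 CPM ± 4.1 (SD, n = 3 each), a ratio of 3.97. All 15 Klk1 and Klk1b genes together had 121.1 CPM ± 14.7 in WT and 224.3 CPM ± 4.9 in ArKI (SD, n = 3 each), a ratio of 1.85. Klk1b8 alone held 48.6% ± 2.9 of the family's counts in WT and 31.9% ± 1.3 in ArKI testis. In the same terms Klk1b24 went from 7.36% ± 0.59 to 16.7% ± 1.7, Klk1b27 from 4.15% ± 0.73 to 12.1% ± 0.92, Klk1b21 from 7.29% ± 1.10 to 12.7% ± 0.44 and Klk1b22 from 1.36% ± 0.59 to 5.79% ± 0.72 (SD, n = 3 each).

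Markers of the cells of the testis were measured beside the members. The 12 Leydig cell genes summed to 1150 to 1436 CPM in WT and 1638 to 1712 CPM in ArKI testis, and the groups did not overlap. Cyp17a1 (354.4 to 541.6 CPM) and Cyp11a1 (164.8 to 318.1 CPM) rose most in CPM, and the sum mainly follows these genes. Hsd3b1 went from 71.6 to 39.4 CPM, and of the 12 log2 fold changes 9 were above 0 and 3 below. In bulk tissue, more cells of a type and more RNA per cell cannot be told apart. None of the 12 passed both thresholds by edgeR, DESeq2 or limma-voom, 5 had an unadjusted p below 0.05, and 4 passed the FDR alone with higher levels in ArKI, beside 3.55% of all genes tested. These were Cyp11a1, the side-chain cleavage enzyme that begins steroid synthesis (log2 fold change 0.92, SE 0.083, edgeR adjusted p = 1.04e-06), Cyp17a1 (0.59, SE 0.075, edgeR adjusted p = 4.27e-05), Hsd17b3, which makes testosterone (0.51, SE 0.090, edgeR adjusted p = 0.00165), and Hao2 (0.59, SE 0.15, edgeR adjusted p = 0.0473), which lost its call without WT replicate 3 (0.53).

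With edgeR the other 8 Leydig cell genes did not pass the FDR, while DESeq2 and limma-voom each passed 5 of the 12, the fifth being Hsd3b1, lower in ArKI. Scarb1, the lipoprotein receptor that supplies cholesterol, had a log2 fold change of 0.11 (SE 0.063), the hormone gene Insl3 had a log2 fold change of 0.02 (SE 0.15), the transcription factor Nr5a1 0.08 (SE 0.097), the luteinizing hormone receptor Lhcgr −0.29 (SE 0.29) and Hsd3b1 −0.89 (SE 0.27, edgeR adjusted p = 0.289). The median over the 12 was 0.16. The 4 members that were higher in ArKI had log2 fold changes of 1.67 to 2.96, and the highest of a Leydig cell gene on the list was 0.92. The members were chosen on this comparison, so nothing is read from that distance. The part of the Leydig cell genes in the members' values was not tested.

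The 10 macrophage genes summed to 134.8 to 152.7 CPM in WT and 169.0 to 175.8 CPM in ArKI testis. With edgeR 3 of these passed the FDR, against 2 with DESeq2 and 4 with limma-voom, none passed both thresholds with any of these tools, and 7 had an unadjusted edgeR p below 0.05; the 3 were Lyz2 (log2 fold change 0.53, SE 0.11, edgeR adjusted p = 0.011), C1qb (0.49, SE 0.12, edgeR adjusted p = 0.029) and C1qa (0.44, SE 0.13, edgeR adjusted p = 0.108). The most abundant gene of the list, Mrc1, was at 50.6 CPM in WT and 49.7 CPM in ArKI (log2 fold change −0.05, SE 0.080, edgeR adjusted p = 0.844), and Adgre1, which encodes F4/80, at 7.76 and 7.09 CPM (−0.16, SE 0.14, edgeR adjusted p = 0.696). Cd74 (0.56, SE 0.23) and Csf1r (0.24, SE 0.11) did not pass either. None of the 10 Sertoli cell genes, the 10 germ cell genes or the 8 tested genes of epididymal epithelium passed even the FDR with edgeR, DESeq2 or limma-voom, and 1 of each list had an unadjusted p below 0.05. The log2 fold changes of the 3 most abundant were 0.02 (Aard), 0.19 (Defb19) and 0.08 (Cldn11) among Sertoli cell genes, 0.11 (Prm2), 0.04 (Tnp2) and 0.08 (Prm1) among germ cell genes, and −0.29 (Rnase10), −0.43 (Lcn5) and −0.11 (Ros1) among the epididymal genes. Summed Sertoli cell genes ranged from 437.0 to 489.9 CPM in WT and from 471.5 to 529.2 CPM in ArKI testis. Of 7 tested duct and other epithelium genes, 1 passed, Pax8, at 0.52 against 1.19 CPM (log2 fold change 1.17, SE 0.37, edgeR adjusted p = 0.127), and it did not pass with DESeq2 or without ArKI replicate 1 or 2 or WT replicate 1 or 3 (1.07 to 1.18). Each marker on these lists had counts in at least 1 testis sample of each genotype.

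**Figure D4:**
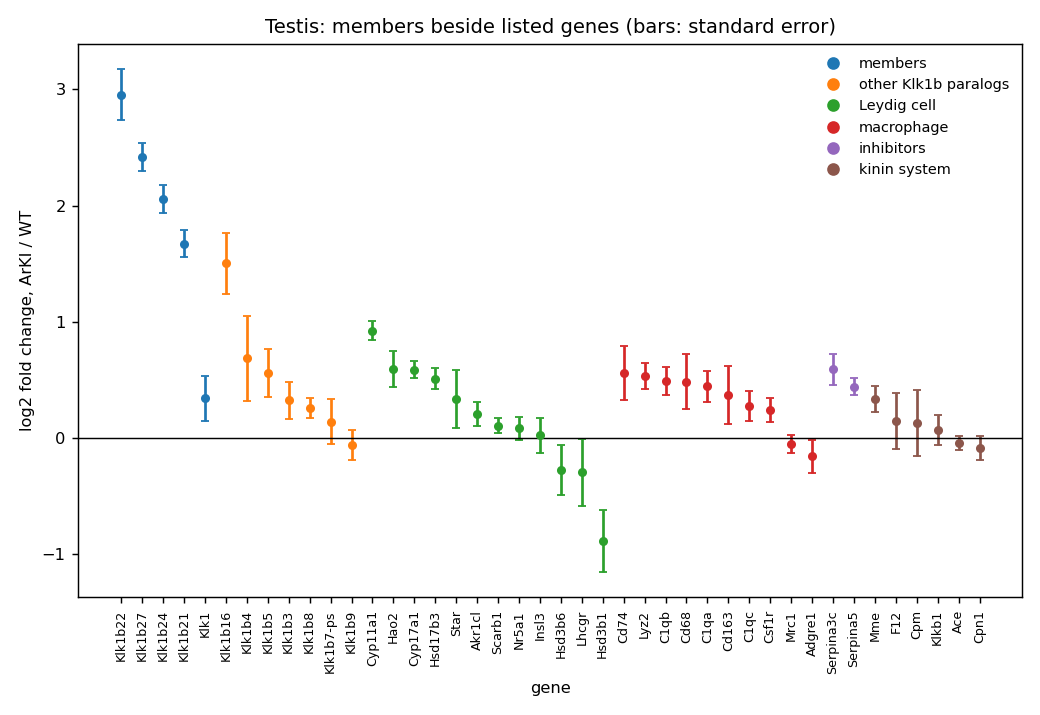
Log2 fold change of ArKI over WT testis (bars, SE) for the members, the other Klk1b genes and the tested genes of the Leydig cell, macrophage, inhibitor and kinin system lists. The 4 members at the left, at 1.67 to 2.96, and Klk1b16, at 1.5, lie above every gene of the other lists, of which Cyp11a1, at 0.92, is highest. The members were chosen on this comparison, so nothing is read from their place above the other lists.

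Genes on which kallikreins act, or that act on kallikreins, were tested in testis as well. Of 10 kinin system genes 6 could be tested and none passed both thresholds with edgeR, DESeq2 or limma-voom. The neprilysin gene Mme, whose product degrades kinins, passed the FDR alone (log2 fold change 0.34, SE 0.11, edgeR adjusted p = 0.152) and was the 1 gene of the list with an unadjusted p below 0.05. It lost the call with DESeq2 and without ArKI replicate 2 or 3 or WT replicate 2 or 3 (0.28 to 0.33). The kininogen genes Kng1 and Kng2 and the receptor genes Bdkrb1 and Bdkrb2 were too low to be tested, at no more than 0.64 CPM on average in either genotype, while Ace, the angiotensin-converting enzyme, was high at 960.7 CPM in WT and 948.6 CPM in ArKI, and Cpn1, a carboxypeptidase that acts on kinins, was at 17.4 and 16.7 CPM.

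Of the substrates and receptors, Egf and Egfr did not pass, with log2 fold changes of −0.01 (SE 0.16) and −0.09 (SE 0.19), and Ren1 was too low to be tested. Agt, angiotensinogen, passed the FDR alone (log2 fold change 0.60, SE 0.12, edgeR adjusted p = 0.0332) but not without ArKI replicate 1 (0.55), and 1 of the 5 genes tested had an unadjusted p below 0.05. Both tested inhibitor genes passed the FDR but not the fold threshold. Serpina5, the protein C inhibitor, rose from 111.3 to 153.3 CPM (log2 fold change 0.44, SE 0.073, edgeR adjusted p = 9.2e-04), and Serpina3c, a kallikrein-binding serpin, from 15.2 to 23.5 CPM (log2 fold change 0.59, SE 0.14, edgeR adjusted p = 0.026). None of the 12 kallikrein genes Klk4 to Klk15 was high enough to be tested, so no count at an unadjusted p exists for them; the highest, Klk6, Klk14 and Klk15, had group means of 0.086 to 0.294 CPM.

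In the epididymis the members were near or below the limit of detection, and none passed the filter on low counts in the IS or the caput. Klk1b27 was the most abundant of them. In the IS it had 4, 3, 4, 0 and 5 counts in WT and 0, 2, 1, 2 and 8 counts in ArKI. In the caput it had 6, 3, 2, 5 and 1 counts in WT and 3, 0, 10, 9 and 11 counts in ArKI. The groups overlapped in both. The difference of the mean log2(CPM + 0.5), ArKI minus WT, was −0.09 in the IS (two-sided exact permutation test, p = 0.770) and 0.24 in the caput (two-sided exact permutation test, p = 0.468).

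Klk1b24 was at 0 to 4 counts in each epididymal sample, and Klk1b21 exceeded 3 counts in 1 IS sample, ArKI replicate 3, with 4 counts. Above 3 counts were only ArKI samples for Klk1b24 in the caput (difference 0.05) and for Klk1b21 in the IS (difference 0.21, or 0.012 without ArKI replicate 3), so these differences are given without a test. Adjusted over all 4 comparisons computed, the exact permutation p of Klk1b27 was 0.77 in both segments, and the smallest p that 5 against 5 samples allow is 0.00794. Klk1 reached 3 counts and Klk1b22 1 count, so a difference between genotypes in these 2 genes was not detectable at this depth. Klk1b5, a paralog next to Klk1, was the family gene best seen in the caput, with 13 to 30 counts in WT and 19 to 40 in ArKI (log2 fold change 0.42, SE 0.22, edgeR adjusted p = 0.170), and it did not pass the thresholds used there.

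**Figure D5:**
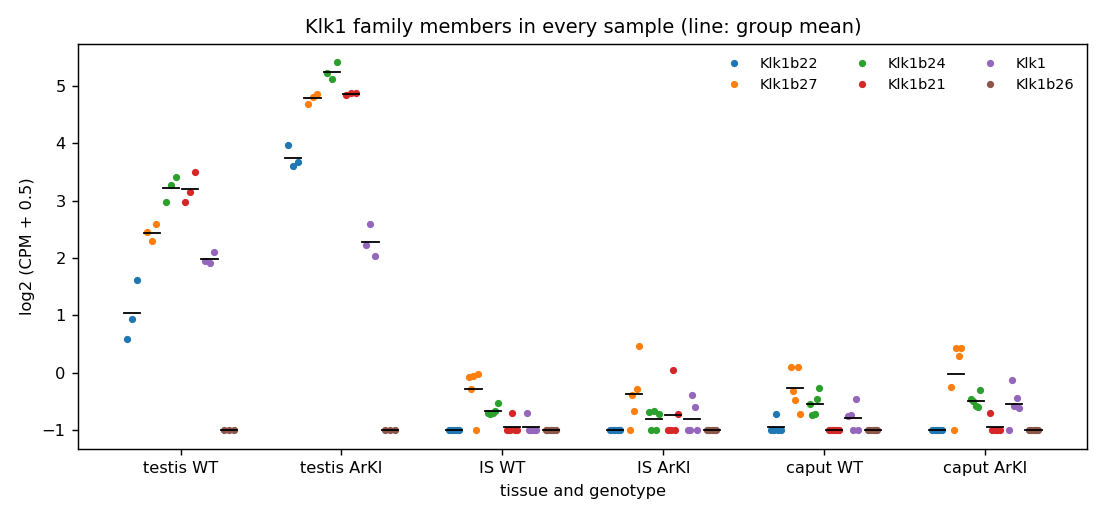
Log2(CPM + 0.5) of the 6 members in every sample of the 6 groups, with each point a sample and the line the group mean; a value of −1 stands for 0 counts. Members with reads in testis lie between about 0.6 and 5.4 there, and in the IS and caput all samples lie below 0.5.

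In the epididymis the FDR had to be below 0.01 and the change more than 2-fold, which held for 4.04% of the 13434 genes tested in the IS and 4.98% of the 13726 in the caput, both directions together. Among the genes around the kallikreins, Agt met them in the IS (8.47 CPM in WT against 28.0 in ArKI, log2 fold change 1.71, SE 0.32, edgeR adjusted p = 0.00386) and in the caput (44.6 against 282.1 CPM, log2 fold change 2.65, SE 0.35, edgeR adjusted p = 6.89e-04). In the IS the call for Agt was lost, at a log2 fold change of 1.64 to 1.68, when WT replicate 1, 2, 3 or 4 was left out. None of the 4 kinin system genes and 1 inhibitor gene tested in the IS met them with edgeR, while all had an unadjusted p below 0.05. The most abundant were Ace (log2 fold change −0.48, SE 0.16, edgeR adjusted p = 0.0575), Mme (0.92, SE 0.080, edgeR adjusted p = 5.99e-07), Cpm (−0.50, SE 0.15, edgeR adjusted p = 0.014) and Spink5 (−1.30, SE 0.36, edgeR adjusted p = 0.0257), an inhibitor of kallikrein-related peptidases that DESeq2 and limma-voom did call. In the caput Kng2, a kininogen, also rose (1.71 against 3.92 CPM, log2 fold change 1.20, SE 0.27, edgeR adjusted p = 0.00237). Cpn1, at 8.82 against 26.5 CPM (log2 fold change 1.53, SE 0.37, edgeR adjusted p = 0.0145), met the thresholds with DESeq2 and limma-voom but not with edgeR, and its groups overlapped. Spink5 fell from 2223 to 793.1 CPM (log2 fold change −1.49, SE 0.10, edgeR adjusted p = 1.78e-07). These genes are reported beside members that were barely detectable in the same samples.

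Between tissues, WT testis held 128 counts of Klk1 in all against 1 in the 5 WT IS and 4 in the 5 WT caput samples, a ratio of pooled CPM to caput of 40.9 (95% exact counting interval 15.6 to 152.6). For Klk1b24 there were 325 counts in testis against 6 in the IS and 9 in the caput, ratios of 65.2 (29.6 to 178.9) and 46.2 (24.0 to 102.0). No WT caput library for Klk1 and no WT IS library for Klk1b24 reached 3 counts. Their ratios therefore rest on pooled counts below the limit per library. Klk1b27 differed least between tissues, with 183 counts against 16 and 17, ratios of 13.8 (8.25 to 24.6) and 13.8 (8.37 to 24.2). Klk1b21 had 322 counts in testis and 0 in the 5 WT caput samples, which made it at least 27.6-fold higher in testis when each caput library was set at 3 counts. Klk1b22, with 60 counts in WT testis and 0 in the IS, was at least 4.88-fold higher by the same limit per library. The members passed the filter on low counts only through the testis libraries, so these ratios are given without a test, and the intervals cover counting error only.

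The genes whose levels were most like Klk1b22 were found by Pearson's r of log2(CPM + 0.5) over the 15837 other genes tested in testis. Over the 6 testis samples these were Angpt4 (r = 0.995), Pgm2 (0.995), Klk1b21 (0.995), Col1a1 (0.993) and Acvrl1 (0.992). Over all 26 samples they were Gucy1b2 (0.985), Gif (0.983), Bpifb6 (0.982), Klk1b16 (0.979) and Klk1b24 (0.975). The first set rests on 2 groups of 3 samples and the second on 2 tissue classes sequenced apart, so that any gene with a like difference between groups has a high r. Klk1 ranked 2334 over the testis samples (r = 0.660) and Klk1b9 8236 (r = 0.067).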

How the data were processed

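Per the study's methods, poly(A) RNA libraries were sequenced as 50-base single-end reads, aligned with STAR to mm10, and uniquely mapped reads were counted per RefSeq gene with Subread 1.5.1; bcl2fastq 1.8.4 is named in the submitters' processing notes. The authors deposited raw counts per gene in 2 tables, one for the epididymal and one for the testis libraries, and these counts were used as deposited. The labels and the methods name different library kits, of which only one keeps the strand, and strand use in the counting is not given in the sources used here.

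Genes were filtered with filterByExpr (minimum count 10, minimum total 15), TMM-normalized and tested with the quasi-likelihood test of edgeR 4.0.16 with robust dispersions and Benjamini-Hochberg adjustment. Testis, IS and caput ArKI samples were each compared with WT, as were the WT tissues. Thresholds were an FDR below 0.2 (testis), 0.01 (IS, caput) or 0.05 (tissues), each with a fold change above 2, following the study for the genotype comparisons. In these files the 5 or 3 samples a group are separate mice per the methods. The fit was checked on simulated counts: for testis, 197 of 200 genes changed 4-fold were recovered among 15716 genes.

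The members and all gene lists (other Klk1b and Klk genes, kinin system, substrates and receptors, inhibitors, Leydig, Sertoli and germ cell, macrophage, epididymal, duct and other epithelium) were chosen with earlier results of these data known. All members are named. From each list described the genes past both thresholds are named (at most 6), or else the 3 most abundant, and in testis also those past the FDR alone and others chosen after their values were seen. Markers of cell types and the genes Klk4 to Klk15 are described in testis only. Flanking genes and the 5 genes most like Klk1b22 were set by position and by r. Positions, transcripts and windows came from GENCODE M21 (GRCm38, the assembly of mm10) and promoters from RefSeq. Alternatives were DESeq2 1.42.0, limma-voom (limma 3.58.1), other scalings, no filter, a replicate block and leaving out each sample. Some items of the study and of the lists are not reported here.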

Additional observations from a re-analysis of the deposited data

Results flagged for a closer look

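In groups of 5 epididymal samples, Dixon's criterion was used to look for a single sample apart from the rest. It was applied to 16 combinations of member and group with unequal values. Its rate by chance, about 1 time in 20 groups, is for continuous values. A single count against 0 in the others always meets the criterion, so the number of hits here is not compared with that rate. The criterion was met 5 times. In 4 of these a single count stood against 0 in the others: Klk1 in IS WT replicate 1 (0.114 CPM), Klk1b21 in IS WT replicate 3 (0.117 CPM) and in caput ArKI replicate 1 (0.114 CPM), and Klk1b22 in caput WT replicate 3 (0.110 CPM). The fifth was Klk1b21 in IS ArKI replicate 3, with 4 counts or 0.540 CPM. The single counts lie below the limit of 3 counts, and the fifth lies 1 count above it. The testis groups, of 3 samples, are too small for this criterion.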

How the results depend on the processing

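The number of genes passing both thresholds in testis, 132, ran from 101 to 175 over 13 alternatives, and the counts of the other comparisons also stayed within 1.5 times. In testis the log2 fold changes of Klk1b21, Klk1b22, Klk1b24 and Klk1b27 stayed positive under all 12 alternatives run, between 1.55 and 3.41, and that of Klk1 between 0.15 and 0.47. Klk1b16 passed under all 12 (1.23 to 1.78). With the replicate number as a block, 136 genes passed in testis, 557 in the IS, 656 in the caput and 2907 between WT segments, and Klk1b22 had 2.97; same-numbered testis samples correlated at 0.0167, −0.00796 and 0.0532, and in each other comparison at least 1 number correlated at under 0.1, so the numbers were not taken as pairs. For WT IS against WT caput the values were −0.00887, 0.0324, 0.178, 0.111 and 0.165, numbers 3, 4 and 5 correlating best with their own number. The labels do not say whether a number marks a mouse. The methods take both segments from 5 WT and 5 ArKI mice, and the main fit of this comparison was made without pairing. Summing all 15 family genes in place of the 6 members moved the log2 ratio from 1.99 to 0.89. Leaving out samples moved Klk1b9 in testis from −0.16 to 0.090 and Klk1b27 in the IS from −0.30 to 0.067, crossing 0; neither had passed a test. Klk1b21 in the IS, given without a test, ran from 0.012 without ArKI replicate 3 to 1.95 (SE 1.2) as an edgeR log2 fold change with no filter. The cause was not tested. Under the block Agt in the caput (2.77), and Klk1b8 (0.27) and Mme (0.33) in testis, lost their calls. Depth limits the epididymal values, where most members were under 3 counts.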
